A study of Mus musculus with 4 samples.

Results

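Inhibitory neurons that release GABA fall into classes named for marker genes, and 6 of the sparsest classes in these mouse brain sections are described here: Sst, Vip, Lamp5, Lamp5_Lhx6, Sncg and Pax6. In the tables they are the columns GABAergic_Sst, GABAergic_Vip, GABAergic_Lamp5, GABAergic_Lamp5_Lhx6, GABAergic_Sncg and GABAergic_Pax6. Their members are the spots in which the deposited cell type table gives the class a share above 0. There were 365 such spots among 14809, with 60 of 3477 spots in the ketamine-treated susceptible section, 73 of 3443 in the susceptible section, 138 of 4156 in the resilient section and 94 of 3733 in the control section. A spot is a small printed area of the slide that can hold several cells or parts of cells. The shares are the authors' estimates of how much of a spot belongs to each of 67 cell types, and they are not counts of cells.

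All animals were wild type C57 mice. Defeated mice had gone through chronic social defeat stress, in which repeated attack by an aggressor leaves some mice avoidant of others. A test of social interaction then sorted them into susceptible (avoidant) and resilient animals. The ketamine-treated section came from a susceptible mouse given the drug intraperitoneally at 10 mg/kg, with brains collected 7 days later, and the susceptible, resilient and control mice received saline. Each group was represented by 1 sagittal section, so no test across mice was possible, and differences between animals, slides and cutting planes cannot be told apart from the condition. Intervals in the text are exact Clopper-Pearson 95% intervals and cover counting error alone, since neighbouring spots are not independent. Where a count was 0, the limit given is instead 3 spots of the total.

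Interneurons control when and where cortical pyramidal cells fire, and each class does this at a different place on the target cell. Somatostatin (Sst) cells contact distal dendrites, Sncg cells are largely cholecystokinin-expressing cells that contact the cell body, and Lamp5 cells are mostly neurogliaform cells that release GABA diffusely. Vip cells mainly inhibit other interneurons, somatostatin cells above all, and are concentrated in the upper cortical layers. Lamp5_Lhx6 cells are more frequent in the mouse hippocampus than in the mouse neocortex, and Pax6 marks a small population of superficial cortical cells. None of this background is a result of these data.

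The tables give cell types and no genes, so the class names were not checked against marker expression. Location was described instead, and it does not establish the names. Among the 11 GABAergic columns, the 6 classes had the fewest spots: 130 for Sncg, 94 for Sst, 55 for Lamp5_Lhx6, 38 for Lamp5, 30 for Vip and 27 for Pax6 over the 4 sections. Pvalb, the parvalbumin class, was found in 1346 spots, and Sst_Chodl, the long-range somatostatin class, in 802. The 6 classes together made up 6.83% of the summed GABAergic share in the ketamine-treated section, 8.82% in the susceptible, 10.8% in the resilient and 11.1% in the control section. Over all spots, the mean share of the 6 classes was 0.623%, 0.871%, 1.24% and 0.923% in that order. The mean share of all GABAergic types was 9.13%, 9.87%, 11.4% and 8.33%, lowest in the control section. No share above 0 was below 10.1% of a spot in any section, and whether smaller shares had been set to 0 is not stated in the sources used here. A class with few cells in a spot and a class with little RNA per cell cannot be told apart here. Sections shared their array barcodes, with 2503 of 4718 barcodes present in all 4 sections, and no spot with more than 1 type had the same profile in a pair of sections.

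Sncg was found in the most spots of the 6 classes in every section. It was held by 22 spots of the ketamine-treated section (0.633%, interval 0.397 to 0.956), 23 of the susceptible (0.668%, 0.424 to 1.00), 57 of the resilient (1.37%, 1.04 to 1.77) and 28 of the control section (0.750%, 0.499 to 1.08). The resilient interval lay above those of the ketamine-treated and susceptible sections and overlapped that of the control. Where Sncg was present, its median share of the spot was 31.4% in the ketamine-treated, 37.3% in the susceptible, 32.0% in the resilient and 35.1% in the control section. Its mean share over all spots was 0.204%, 0.295%, 0.492% and 0.299% in the same order.

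Sst was the next most frequent class, with 17 ketamine-treated spots (0.489%, 0.285 to 0.782), 20 susceptible spots (0.581%, 0.355 to 0.896), 37 resilient spots (0.890%, 0.628 to 1.23) and 20 control spots (0.536%, 0.328 to 0.826). The resilient section was again the highest, but all 4 intervals overlapped. The median share in these spots was 34.2% in the ketamine-treated, 37.9% in the susceptible, 35.7% in the resilient and 32.0% in the control section. Sst was the leading type in 5 of 17, 10 of 20, 12 of 37 and 6 of 20 of its spots in that order.

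The 2 Lamp5 classes had a different order of sections. Lamp5 was held by 5 ketamine-treated spots (0.144%, 0.0467 to 0.335), 6 susceptible spots (0.174%, 0.064 to 0.379), 12 resilient spots (0.289%, 0.149 to 0.504) and 15 control spots (0.402%, 0.225 to 0.662). Lamp5_Lhx6 was held by 12 ketamine-treated spots (0.345%, 0.178 to 0.602), 14 susceptible spots (0.407%, 0.222 to 0.681), 12 resilient spots (0.289%, 0.149 to 0.504) and 17 control spots (0.455%, 0.266 to 0.728). Both were highest in the control section, and their intervals overlapped between all sections. Lamp5 never filled more than 62.1% of a spot, and it led 9 of its 38 spots.

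Vip and Pax6 were the rarest classes. Vip was held by 1 ketamine-treated spot (0.0288%, 0.000728 to 0.160), 7 susceptible spots (0.203%, 0.0818 to 0.418), 13 resilient spots (0.313%, 0.167 to 0.534) and 9 control spots (0.241%, 0.110 to 0.457). The single ketamine-treated spot was 50.2% Vip and lay in cluster 8. The ketamine-treated interval ended below the start of the resilient one and overlapped the others. Vip led 17 of its 30 spots, a larger part than any of the other 5 classes, and its median share over the 4 sections was 47.9%. The medians of the others ran from 25.3% for Pax6 to 35.5% for Sst. Pax6 was held by 4 ketamine-treated spots (0.115%), 3 susceptible spots (0.0871%), 12 resilient spots (0.289%) and 8 control spots (0.214%), with overlapping intervals. The 3 susceptible Pax6 values were 16.6%, 18.8% and 25.3% of a spot, the 4 ketamine-treated values ran from 19.2% to 33.1%, and the lowest share of any of the 6 classes, 10.5%, was a resilient Pax6 spot.

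**Figure D1:**
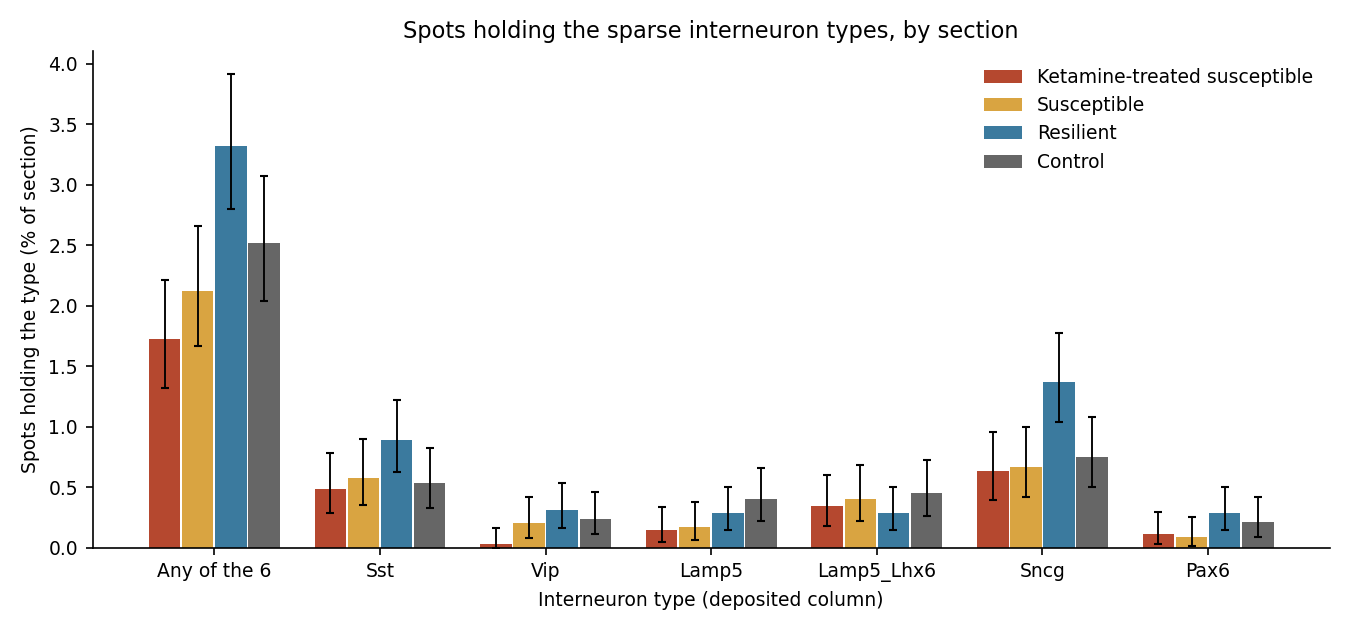
Percent of the spots of each section (y axis) that hold any of the 6 interneuron classes or each class alone (x axis), for the ketamine-treated susceptible, susceptible, resilient and control sections, with exact 95% intervals as bars. The resilient section is highest for the 6 together (3.32%), Sncg (1.37%), Sst (0.890%), Vip (0.313%) and Pax6 (0.289%), and the control section for Lamp5 (0.402%) and Lamp5_Lhx6 (0.455%).

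**Figure D2:**
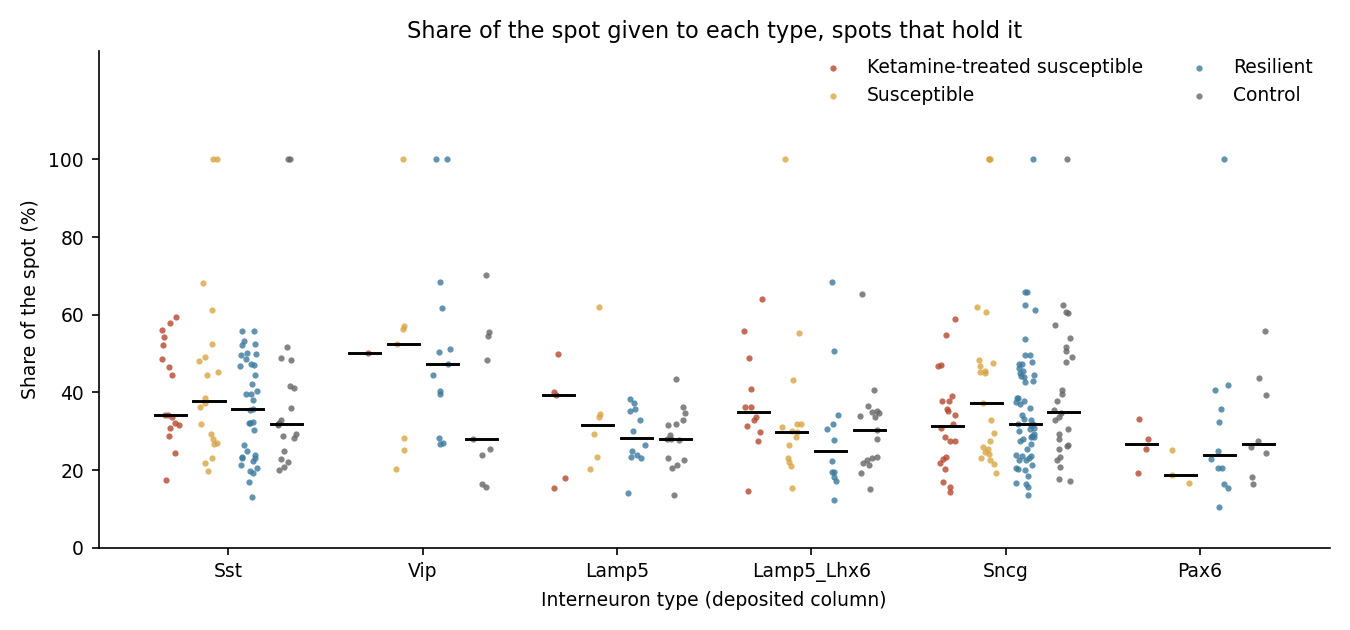
Share of the spot in percent (y axis) given to each class (x axis), 1 point per spot that holds it, coloured by section, with the median as a black line. The lowest share is 10.5%, the class medians run from 25.3% (Pax6) to 47.9% (Vip), and 14 spots were given wholly to 1 of the classes.

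The classes seldom shared a spot. A single class was present in 356 spots and 2 classes were present in 9, and no spot held 3. Sncg was in all 9 of the double spots, with Sst in 3, Pax6 in 3, Lamp5_Lhx6 in 2 and Vip in 1. The other pairs had no spot in common. In 17 spots the 6 classes filled the whole spot, namely 1 ketamine-treated, 7 susceptible, 5 resilient and 4 control spots.

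Location was read from the deposited clusters. Their numbers were taken as 1 clustering over the 4 sections, which no source used here states and on which every comparison of clusters between sections rests. Of these, clusters 2, 6 and 9 held cortical layer types. Glutamatergic types with CTX in their name made up 21.9% to 38.6% of these clusters in every section and at most 9.82% of any other. Cluster 2 was led by the deep-layer type L5_PT_RSP_ACA, and cluster 6 held the upper-layer types L2_IT_RSP_ACA and L2_3_IT_CTX. Spots of the 6 classes lay in these 3 clusters in 31 of 60 cases in the ketamine-treated section (51.7%, 38.4 to 64.8), 27 of 73 in the susceptible (37.0%, 26.0 to 49.1), 56 of 138 in the resilient (40.6%, 32.3 to 49.3) and 38 of 94 in the control section (40.4%, 30.4 to 51.0). Of all spots, 32.8%, 30.4%, 29.6% and 29.6% lay there in the same order. The interval of the classes lay above the share of all spots in the ketamine-treated, resilient and control sections, and included it in the susceptible section. Most spots of the 6 classes therefore lay outside the cortical clusters in every section other than the ketamine-treated one. Sst_Chodl and Ndnf_HPF, a hippocampal-formation class, had at most 5.19% of their spots there. Pvalb spots were in these clusters at 54.7% in the ketamine-treated, 53.1% in the susceptible, 17.7% in the resilient and 21.1% in the control section.

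The classes differed in where they lay. Sst was concentrated in the deep cortical cluster 2, which held 53 of its 94 spots, against 19.6% of all spots. By section, 10 of 17 Sst spots were in cluster 2 in the ketamine-treated, 11 of 20 in the susceptible, 21 of 37 in the resilient and 11 of 20 in the control section. The resilient section had Sst in 2.74% of the spots of cluster 2 (1.70 to 4.16), and the ketamine-treated, susceptible and control sections in 1.51%, 1.45% and 1.54%, with overlapping intervals. No Sst spot lay in the upper-layer cluster 6, a count of 0 among 974 spots that allows up to 0.308%.

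Lamp5 spots were the most frequent in cluster 6, with 11 of 38 there and 8 in cluster 2, and 60.5% were in the 3 cortical clusters. Cluster 6 holds 6.58% of all spots. Per section, cluster 6 held 2 Lamp5 spots in the ketamine-treated, 3 in the susceptible, 2 in the resilient and 4 in the control section. Cluster 2 held 0, 0, 3 and 5 in the same order. Lamp5_Lhx6 was placed elsewhere, with 16 of 55 spots in cluster 7 and 10 in cluster 10, and 14.5% in the cortical clusters. Clusters 7 and 10 hold 6.48% and 4.28% of all spots. Oligodendrocytes filled 70.1% to 72.1% of cluster 7, and in cluster 10 dentate gyrus granule neurons (DG) stood second after astrocytes in every section. The section counts of Lamp5_Lhx6 in cluster 7 were 3, 4, 4 and 5 spots, and in cluster 10 they were 1, 1, 3 and 5 spots, from the ketamine-treated to the susceptible, resilient and control sections.

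Vip had 4 of 30 spots in cortical clusters (13.3%), near the share of Lamp5_Lhx6. By section these were 0 of 1 ketamine-treated, 2 of 7 susceptible, 2 of 13 resilient and 0 of 9 control spots, and for Lamp5_Lhx6 3 of 12, 0 of 14, 1 of 12 and 4 of 17. None lay in cluster 2, where 0 of 2906 spots allows up to 0.103%, and 3 lay in cluster 6. Cluster 1, led by oligodendrocytes or astrocytes, held 8 Vip spots, and cluster 4 held 7. These clusters hold 19.7% and 7.18% of all spots. Astrocytes and Sst_Chodl led cluster 4, except in the susceptible section, where L2_IT_RSPv stood second to astrocytes. Pax6 had 9 of its 27 spots in cluster 1 and 6 in cluster 6, and 29.6% in the cortical clusters. Sncg was found in 13 clusters, as was Lamp5_Lhx6 with its 55 spots, and Pax6 was found in 11 with 27. Of the 130 Sncg spots, 31 were in cluster 2, 25 in cluster 1, 17 in cluster 6, and 13 each in clusters 4 and 10. Clusters 2 and 1 held 23.8% and 19.2% of Sncg spots, near their 19.6% and 19.7% of all spots. Within these clusters, Sncg was in 2.05% of the spots of cluster 10, 1.75% of cluster 6 and 1.22% of cluster 4. It was in 1.07% of cluster 2 and 0.856% of cluster 1. With the sections together, most Sst and Lamp5 spots lay in cortical clusters, and most Vip, Lamp5_Lhx6, Sncg and Pax6 spots did not. Single sections departed from this for Sncg, with 12 of 22 ketamine-treated spots in them, for Pax6, with 6 of 12 resilient spots, and for Lamp5, with 3 of 6 susceptible spots. Of all spots in the 4 sections, 30.6% lay in the cortical clusters. Sncg was above that share at 43.1% and Pax6 near it at 29.6%, while Vip and Lamp5_Lhx6 were below it. For most Vip spots, location thus did not bear out the upper-layer background given above, and cluster 6 held 10% of them. Pax6, described there as superficial, had 22.2% of its spots in cluster 6, against 6.58% of all spots. The reason for these locations was not tested.

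**Figure D3:**
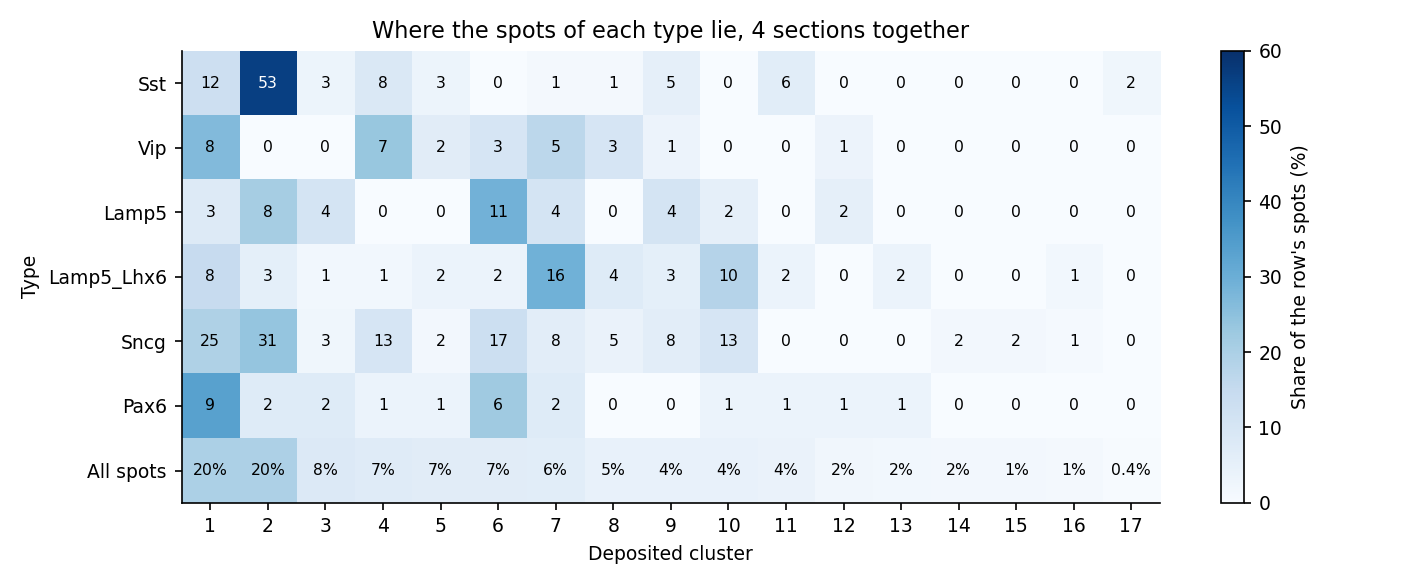
Number of spots of each class (rows) in each deposited cluster (columns), the 4 sections together, with colour for the percent of the row's spots and a last row for the percent of all spots in the cluster. Sst stands out in cluster 2 with 53 spots, Lamp5 has most in cluster 6 (11), and Lamp5_Lhx6 has most in clusters 7 and 10 (16 and 10).

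Within clusters, the share of spots holding any of the 6 classes was followed across sections. In cluster 1 it was 0.599% in the ketamine-treated section (0.124 to 1.74), 2.15% in the susceptible (1.15 to 3.65), 3.28% in the resilient (2.21 to 4.67) and 2.05% in the control section (1.24 to 3.18). The ketamine-treated and resilient intervals did not overlap there. In cluster 2 it was 3.02% in the ketamine-treated (1.85 to 4.62), 1.97% in the susceptible (1.11 to 3.23), 4.70% in the resilient (3.31 to 6.45) and 3.21% in the control section (2.05 to 4.78), and the susceptible and resilient intervals did not overlap. Cluster 4 held 7 of 311 ketamine-treated spots, 5 of 254 susceptible, 18 of 426 resilient and 0 of 72 control spots, the last allowing up to 4.17%. Of the 18 resilient spots, 10 held Sncg. In cluster 6 the share was 1.91% in the ketamine-treated, 4.23% in the susceptible, 4.91% in the resilient and 3.83% in the control section. In the same order it was 2.51%, 3.73%, 3.9% and 4.42% in cluster 7, and 2.6%, 4.11%, 3.5% and 3.88% in cluster 9. Cluster 5 held less than 10% of the classes' spots in every section. None of its 293 ketamine-treated spots held a class, which allows up to 1.02%, and 7 of 465 control spots did. Apart from the pairs named for clusters 1 and 2, no pair of sections had intervals apart in any cluster.

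**Figure D4:**
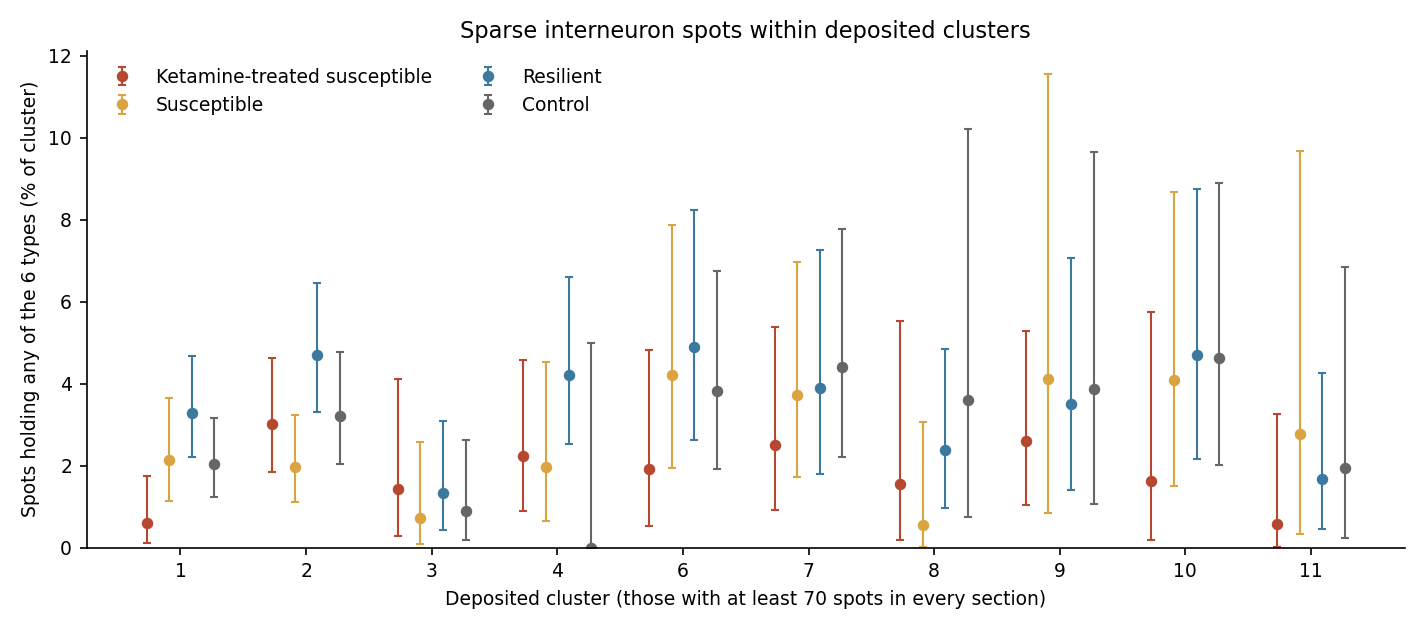
Percent of the spots of a deposited cluster that hold any of the 6 classes (y axis), for the clusters (x axis) that have 70 spots or more in each section, as points with exact 95% intervals coloured by section. Intervals are wide, and in cluster 1 the ketamine-treated section (0.599%) lies below the resilient section (3.28%).

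The first comparison set a susceptible mouse given ketamine beside one given saline. Any of the 6 classes was held by 1.73% of ketamine-treated spots (1.32 to 2.22) and 2.12% of susceptible spots (1.67 to 2.66), a ratio of 0.814 with overlapping intervals. Sst, Vip, Lamp5, Lamp5_Lhx6 and Sncg had ratios below 1 and Pax6 above 1, while 50% of the 44 types with at least 20 spots in the 2 sections had ratios below 1. Sst, Lamp5_Lhx6 and Sncg met that minimum, with ratios of 0.842, 0.849 and 0.947. None of these 3 differed by 1.5-fold, against 20.5% of the 44 types (15.9% lower and 4.55% higher), and none had intervals apart, against 9.09%. The Vip ratio of 0.141 rests on 1 ketamine-treated spot against 7 susceptible spots. Within the 13 clusters that had at least 20 spots in every section, the ketamine-treated share was lower in 7 and higher in 6. Clusters count alike in this tally and in those below, also where a section had 0 or 1 spots of the classes. In the ketamine-treated section, clusters 11, 12, 13 and 15 had 1 such spot each.

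Set against the resilient section, the ketamine-treated section had the widest gap of the 6 comparisons made. The 6 classes were held by 1.73% of ketamine-treated and 3.32% of resilient spots (2.80 to 3.91), a ratio of 0.520 with intervals that did not overlap. All classes other than Lamp5_Lhx6 had ratios below 1, as did 70.2% of 47 types. Of the 3 classes with enough spots, Sncg (ratio 0.461) and Sst (0.549) were lower by at least 1.5-fold and Lamp5_Lhx6 (1.20) was not, against 38.3% of the types that passed the fold either way, 27.7% lower and 10.6% higher. With a minimum share of 20%, the Lamp5_Lhx6 ratio was 1.88, past the fold as a higher share in the ketamine-treated section. The Sncg interval alone was apart among these 3, against 31.9% of the 47 types. Vip, Lamp5 and Pax6 had too few spots to be counted there. Their ratios were 0.0919 (1 against 13 spots), 0.498 and 0.398, and the Vip intervals did not overlap. The median ratio over the 47 types was 0.881, and resilient spots held more types on average, at 2.17 per ketamine-treated spot and 2.33 per resilient spot. With the same distribution of types per spot in all sections, the ratio was 0.601, and with equal weights for the clusters it was 0.533. The ketamine-treated share was lower in 9 of the 13 clusters and higher in 4. The higher ones were clusters 3, 12, 13 and 15. They had 3, 1, 1 and 1 ketamine-treated spots of the classes, against 5, 0, 0 and 1 resilient spots.

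Against the control section, the ketamine-treated section held the 6 classes in 1.73% of spots and the control section in 2.52% (2.04 to 3.07), a ratio of 0.685 with overlapping intervals. All 6 classes had ratios below 1, as did 51.1% of 45 types. Sst, Lamp5, Lamp5_Lhx6 and Sncg had enough spots, and Lamp5 (ratio 0.358, 5 against 15 spots) passed 1.5-fold, against 26.7% of the 45 types (11.1% lower and 15.6% higher). With a minimum share of 20% the Lamp5 ratio was 0.230. None of the 4 had intervals apart, against 17.8% of the types. The ratio of the 6 together crossed the 1.5-fold line in 3 of 11 other settings. Of the 13 clusters, 9 had a lower share in the ketamine-treated section and 4 a higher one.

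The susceptible section was compared with the resilient section, since both mice had been defeated and differed in behaviour. The 6 classes were held by 2.12% of susceptible and 3.32% of resilient spots, a ratio of 0.639 with intervals that did not overlap. Sncg (0.487), Vip (0.650) and Sst (0.652) were lower by at least 1.5-fold and Lamp5_Lhx6 (1.41) was not, so 3 of the 4 classes with enough spots passed, against 43.8% of 48 types that passed either way, 31.2% lower and 12.5% higher. Ratios below 1 were found for 5 of the 6 classes and 66.7% of the types. The interval of Sncg was apart, and those of the other 3 overlapped, against 37.5% of the 48 types with intervals apart. The median ratio over all 48 types was 0.829. The ratio became 0.751 when the number of types per spot was made equal and 0.702 without Sncg, both short of 1.5-fold. Sst stayed short of it with a minimum share of 20% (0.695) and with equal numbers of types (0.751), and Vip with equal cluster weights (0.866) and equal numbers of types (0.741). Lamp5_Lhx6 passed it as higher in the susceptible section with the 20% minimum (2.24) and with equal numbers of types (1.68). Of the 13 clusters, 9 had a lower share of the 6 classes in the susceptible section, 3 a higher and 1 an equal one.

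Susceptible and control sections were the closest pair by the ratio of the 6 classes together, at 2.12% and 2.52% of spots (ratio 0.842, overlapping intervals). Lamp5, with 6 susceptible against 15 control spots (ratio 0.434), was the 1 of 4 classes with enough spots that passed 1.5-fold, against 37.8% of 45 types (11.1% lower and 26.7% higher). None of the 4 had intervals apart, against 28.9%. Ratios below 1 were found for 5 of the 6 classes and 57.8% of the types. Sst had a ratio of 1.08, Lamp5_Lhx6 of 0.893 and Sncg of 0.891. Of the 13 clusters, 6 had a lower share of the 6 classes in the susceptible section, 6 a higher and 1 an equal one.

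In the resilient section, the 6 classes were held by 3.32% of spots and in the control section by 2.52%, a ratio of 1.32 with overlapping intervals. The median ratio over 51 types was 1.29, close to that of the 6 together. Sncg (1.83) and Sst (1.66) were higher and Lamp5_Lhx6 (0.634) was lower by at least 1.5-fold, so 3 of the 6 classes passed, against 43.1% of the 51 types (33.3% higher and 9.8% lower). Ratios below 1 were found for 2 of the 6 classes and 31.4% of the types. Vip (1.30), Pax6 (1.35) and Lamp5 (0.719) stayed short of 1.5-fold. They passed it in 1 other setting each, at 1.67 for Vip with a minimum share of 20%, 1.74 for Pax6 with equal cluster weights and 0.614 for Lamp5 with equal numbers of types per spot. Lamp5_Lhx6 had a ratio of 0.419 with the 20% minimum. No class had intervals apart in this pair, against 35.3% of the types. The ratio without Sncg was 1.12. Of the 13 clusters, 7 had a higher share of the 6 classes in the resilient section, 5 a lower and 1 an equal one.

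The content of the rest of the spot was then described. Spots with any of the 6 classes held on average 1.98 other types in the ketamine-treated, 1.74 in the susceptible, 2.03 in the resilient and 1.93 in the control section, between 0.833 and 0.919 times the number of types in spots without them. These factors are the level against which a single partner is read. Glutamatergic types were present in 75% of the classes' spots in the ketamine-treated, 63.0% in the susceptible, 72.5% in the resilient and 59.6% in the control section, against 66.4%, 66.4%, 65.7% and 62.3% of other spots. Non-neuronal types were present in 50%, 50.7%, 50% and 68.1% of the classes' spots, below the 61.9%, 60.3%, 64.0% and 70.8% of other spots. In the susceptible and control sections this gap was no wider than the factor of the section (0.833 and 0.861). Pvalb and L2_IT_RSPv had ratios below these factors in every section. Pvalb was in 0 of 60 ketamine-treated, 2 of 73 susceptible, 9 of 138 resilient and 3 of 94 control spots of the 6 classes, against 6.79%, 8.16%, 10.5% and 11.1% of the other spots. At the rate of other spots in the same section and cluster, 33.2 spots would have held Pvalb, and 14 did. This number and the later ones at the rate of the same clusters use the full rate and were not lowered by the factors above. L2_IT_RSPv, a layer 2 type named for the retrosplenial area, had ratios of 0.637, 0.630, 0.486 and 0.707 in the same order. L2_IT_RSP_ACA lay below the factor in the ketamine-treated (0.751), susceptible (0.296) and control (0.591) sections, and not in the resilient section, where its share of spots was the same with and without the classes (0.9997). At the rate of the same clusters 40.5 and 43.6 spots would have held these layer 2 types, and 27 and 22 did.

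Sst_Chodl and L4_5_IT_TPE_ENT were the partner types found in a larger share of the classes' spots than of other spots in all 4 sections. Sst_Chodl was in 8.33% of ketamine-treated, 9.59% of susceptible, 14.5% of resilient and 3.19% of control spots of the 6 classes, against 6.35%, 4.93%, 7.72% and 2.03% of the other spots. It was present in 35 of the 365 spots, and 20.7 would be reached at the rate of the same clusters. By section the counts were 5 ketamine-treated, 7 susceptible, 20 resilient and 3 control spots, against 3.96, 3.14, 12.5 and 1.12 at that rate. Of these 35 spots, 19 held Sncg, 10 Sst and 5 Vip. L4_5_IT_TPE_ENT had ratios of 1.63, 1.02, 1.04 and 1.19, but its 55 spots are near the 52.1 of the same clusters. The cluster-matched counts were chosen after the data had been seen.

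**Figure D5:**
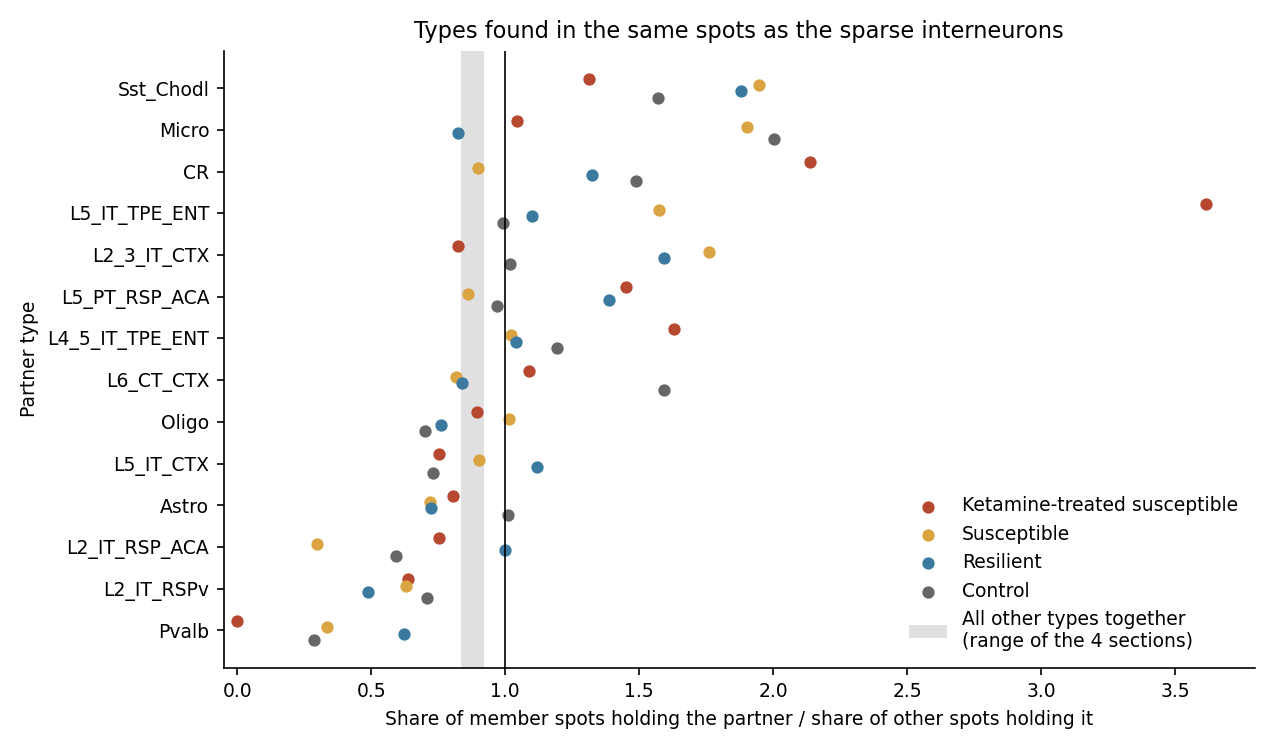
Ratio (x axis) of the share of spots with any of the 6 classes that hold a partner type to the share of other spots that hold it, for each partner found in at least 10 such spots (y axis), coloured by section; the black line marks 1 and the grey band the ratio for all other types together. Pvalb lies below 1 in every section (0 to 0.622), and Sst_Chodl lies above 1 in every section (1.31 to 1.95).

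The company of single classes was looked at after the values were known. The numbers at the rate of the clusters were not adjusted for how many other types these spots held. Sst shared 34 of its 94 spots with L5_PT_RSP_ACA, the deep-layer projection neurons that lead cluster 2, and 32.2 were reached at the rate of its clusters. Astrocytes were in 18 Sst spots, where 30.3 would match the clusters, and the observed count was below that number in each of the 4 sections. The same held for Sncg (36 spots against 53.1) and Vip (9 against 13.4). For Vip the gaps were small, and the ketamine-treated section had 1 Vip spot. The Vip counts were 0 ketamine-treated, 1 susceptible, 5 resilient and 3 control spots, against 0.571, 2.55, 6.31 and 3.92. Lamp5 had astrocytes in 26 of 38 spots, above the 16.3 of the same clusters and above it in every section. Lamp5_Lhx6 spots held oligodendrocytes in 26 of 55 cases and astrocytes in as many, against 24.8 and 25.5 at the rate of the clusters. Pax6 had astrocytes in 20 of 27 spots (13.7 at the rate of the clusters), with 3 in the ketamine-treated, 1 in the susceptible, 8 in the resilient and 8 in the control section. The susceptible count was below the 1.52 of its clusters, and the other 3 were above theirs. Sncg spots held Sst_Chodl in 19 cases, against 9.15 at the rate of the clusters, and 12 of the 19 were in the resilient section.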

How the data were processed

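Spatial transcriptomics was run on 4 mouse brain sections, 1 per group. The deposited tables give, for each spot, a cluster number and the fraction assigned by the authors to each of 67 cell types or to unknown, which together make 1. The submitters' processing notes list mm10. The sources used here name neither the cell type method and its reference nor the clustering. Sequencing depth is unknown, and the number of spots limits the precision.

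Spots with a fraction above 0 in any of the 6 columns were counted, and shares were given with exact intervals (scipy 1.17.1). Ratios between sections were set beside those of all types with at least 20 spots in both sections together. The interval and weighting code was tested on simulated data. The members, lists and clusters were chosen with earlier results of these data known. All 6 classes were named throughout. Partner types needed at least 10 shared spots and a ratio on the same side of 1 in all 4 sections. Alternatives were a minimum share of 20%, no unknown spots, equal cluster weights, equal numbers of types per spot, mean shares and leaving out each class. t-SNE coordinates were not used.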

Additional observations from a re-analysis of the deposited data

How the results depend on the processing

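The order of the sections, resilient, control, susceptible and ketamine-treated from high to low, was the same in the share of spots holding any of the 6 classes under all 11 other settings. Of 210 recomputed values, 202 counted as unmoved, which for a share means within the counting interval of the reported value. The 210 include ratios between sections, for which no interval is given here. All 96 values for single classes were unmoved, and their intervals are wide. Of these 96, 3 moved by over 1.5 times, each with a minimum share of 20%: Lamp5 in the ketamine-treated section to 0.0863%, Lamp5_Lhx6 in the resilient section to 0.168% and Pax6 in the susceptible section to 0.0290%. Of 144 ratios of single classes between sections, 9 moved by over 1.5 times, all of them for these 3 classes at that minimum. The 8 of the 210 values that moved come from leaving out Sst or Sncg, the classes with the most spots. Leaving out a class can only lower the share, and by more for a class with more spots. These moves therefore follow from class size. Without Sst, the share was 1.24% in the ketamine-treated, 1.54% in the susceptible, 2.48% in the resilient and 2.01% in the control section, and without Sncg it was 1.12%, 1.45%, 2.07% and 1.85%. The ratio of the ketamine-treated to the resilient section ranged from 0.461 to 0.601 and passed 1.5-fold in all 11 settings, that of the susceptible to the resilient section ranged from 0.561 to 0.751 and passed in 7, and that of the ketamine-treated to the control section ranged from 0.607 to 0.747 and passed in 3. The other 3 ratios stayed on 1 side of 1 and never passed 1.5-fold. The alternative rule for cortical clusters chose the same clusters 2, 6 and 9. No paired analysis was possible because each group had 1 section. The cause of these shifts was not tested beyond the settings named.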
